A study of Homo sapiens with 8 samples.

Results

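Elastic microfibrils are thin extracellular filaments built from fibrillins, and 10 of the genes that make or bind them were followed in bile duct cancer cells after knockdown of YAP1. They are MFAP5, MFAP2 and MFAP4, the fibrillin genes FBN1 and FBN2, the latent TGF-beta binding protein genes LTBP2 and LTBP3, and the fibulin genes FBLN5, EFEMP1 and EFEMP2. They were chosen by symbol, and all 10 were among the 19775 genes measured. Of these 10 genes, MFAP5 and EFEMP1 fell with the YAP shRNA and the other 8 did not pass the test.

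The cells were HuCCT1, an established human cholangiocarcinoma line. The first group of 4 samples carried an shRNA against YAP1, the transcriptional coactivator of the Hippo pathway, and the second group of 4 samples carried a scrambled control shRNA. Both groups received doxycycline, at 100 ng/ml for 3 days before seeding, to switch the shRNA on, so the controls carry the drug as well. The labels name a single YAP shRNA, so a second sequence against YAP1 was not analysed here, and nothing in them says that the replicates were separate cultures. P-values therefore cover only the spread among these 8 arrays, part or all of which may be technical. The series title speaks of YAP overexpression, whereas the design text and sample labels describe knockdown. YAP1 itself stood at 10.40, 10.55, 10.51 and 10.54 on the YAP shRNA arrays, against 12.59, 12.61, 12.77 and 12.60 on the control shRNA arrays (log2 values).

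Fibrillin molecules assemble end to end into microfibrils, which stand alone or form the scaffold on which elastin is laid down and cross-linked. MFAP2 and MFAP5 (also called MAGP-1 and MAGP-2) are small glycoproteins that decorate the fibrillin filament, latent TGF-beta binding proteins anchor growth factor complexes to it, and fibulins link elastin to it. Fibroblasts and smooth muscle cells are the main makers of elastic fibres, and epithelial tumour cells can transcribe some of these genes too.

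Each array gave 1 log2 value per probe set, a group of short probes against a stretch of a transcript. Where a gene had several probe sets with 1 gene symbol, the one with the highest mean over the 8 arrays stood for it. Array medians lay between 6.22 and 6.25. Control shRNA replicate 4 stood apart. Its mean correlation with the other control arrays was 0.9967, where the remaining 7 arrays had 0.9978 to 0.9988 with their own groups. Several results are therefore also given without it. The 7 biliary epithelial markers measured lay between the percentiles 95.1 and 99.7 of all genes by level. Of these, CDH1 and KRT19 rose by 0.33 and 0.15 on the log2 scale, and 5 did not pass the test. The 14 fibroblast and smooth muscle markers had a median percentile of 34.2 in a range of 11.5 to 96.0, with VIM, the vimentin gene, at the top. Of those 14 markers, COL1A1 rose by 0.52, POSTN and VIM fell by 1.02 and 0.28 on the log2 scale, and 11 did not pass the test. Summed over the 14 markers, log2 values ran from 88.2 to 89.8 on YAP shRNA arrays and from 88.0 to 90.2 on control shRNA arrays. In bulk RNA of 1 cell line, fewer cells expressing a gene and less RNA per cell cannot be told apart.

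Of the 10 genes, 2 fell and 0 rose at a limma adjusted p below 0.05, and 8 did not pass. Over all 19775 genes, 16.7% were called, 7.17% as falls and 9.49% as rises, so the members' share lay near the background. At an unadjusted limma p below 0.05, 4 members fell and 1 rose, where 2518 of all 19775 genes fell and 3267 rose. The median log2 fold change was -0.16 over the 10 genes and 0.01 over all genes. The groups did not overlap for 3 of the 10 genes, MFAP5, EFEMP1 and LTBP2, and for 24.3% of all genes. By level, 6 of the 10 genes lay below the median gene and 1, FBN1, among the lowest 25%. The fits carry no detection call, so whether such dim probe sets measure their transcript was not tested.

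MFAP5 showed the largest change of the 10. Its log2 values were 8.67, 8.76, 8.76 and 8.67 on the YAP shRNA arrays, against 10.20, 10.19, 10.17 and 10.61 on the control shRNA arrays. The groups did not overlap, the YAP shRNA arrays lay close together, and among the controls replicate 4 lay highest. The means were 8.72 ± 0.0545 with the YAP shRNA and 10.29 ± 0.211 with the control shRNA (SD, n = 4 and 4), a log2 fold change of -1.58 (SE 0.097, limma adjusted p = 3.60e-05). That was 2.98-fold lower and the rank of 14 from the most negative of 19775 fold changes. The two-sided exact permutation p was 0.0286, the smallest that 4 arrays against 4 allow. Without control shRNA replicate 4 the fall was 2.77-fold, with a log2 fold change of -1.47 (limma adjusted p = 6.26e-06).

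All 3 MFAP5 probe sets fell. The second gave 7.39, 7.17, 7.39 and 7.09 on the YAP shRNA arrays and 8.78, 8.69, 8.47 and 9.38 on the control shRNA arrays, and the third gave 7.28, 7.25, 7.43 and 7.28 against 8.74, 8.64, 8.53 and 9.07. Their log2 fold changes were -1.57 and -1.44 (limma adjusted p = 0.000718 and 0.000107 over all probe sets with 1 symbol). Control shRNA replicate 4 was the highest array on each of the 3 probe sets. The third probe set's identifier carries no mark of shared sequence with other transcripts.

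EFEMP1, which encodes fibulin-3, was the other gene that fell. Its log2 values were 10.40, 10.45, 10.46 and 10.50 on the YAP shRNA arrays, against 11.41, 11.35, 11.37 and 11.10 on the control shRNA arrays. The groups did not overlap, and control shRNA replicate 4 was the lowest control, on the opposite side from its place in MFAP5. The means were 10.45 ± 0.0376 and 11.31 ± 0.139 (SD, n = 4 YAP shRNA and 4 control shRNA), a fall of 1.81-fold with a log2 fold change of -0.86 (SE 0.068, limma adjusted p = 0.000116). Without that array the fall was 1.90-fold (limma adjusted p = 1.78e-05). The other EFEMP1 probe sets had log2 fold changes of -1.05 and -0.81 (limma adjusted p = 1.97e-05 and 0.000359 over all probe sets), and their groups did not overlap either. The identifiers of all 3 EFEMP1 probe sets end in _s_at, a mark of shared sequence with other transcripts.

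**Figure D1:**
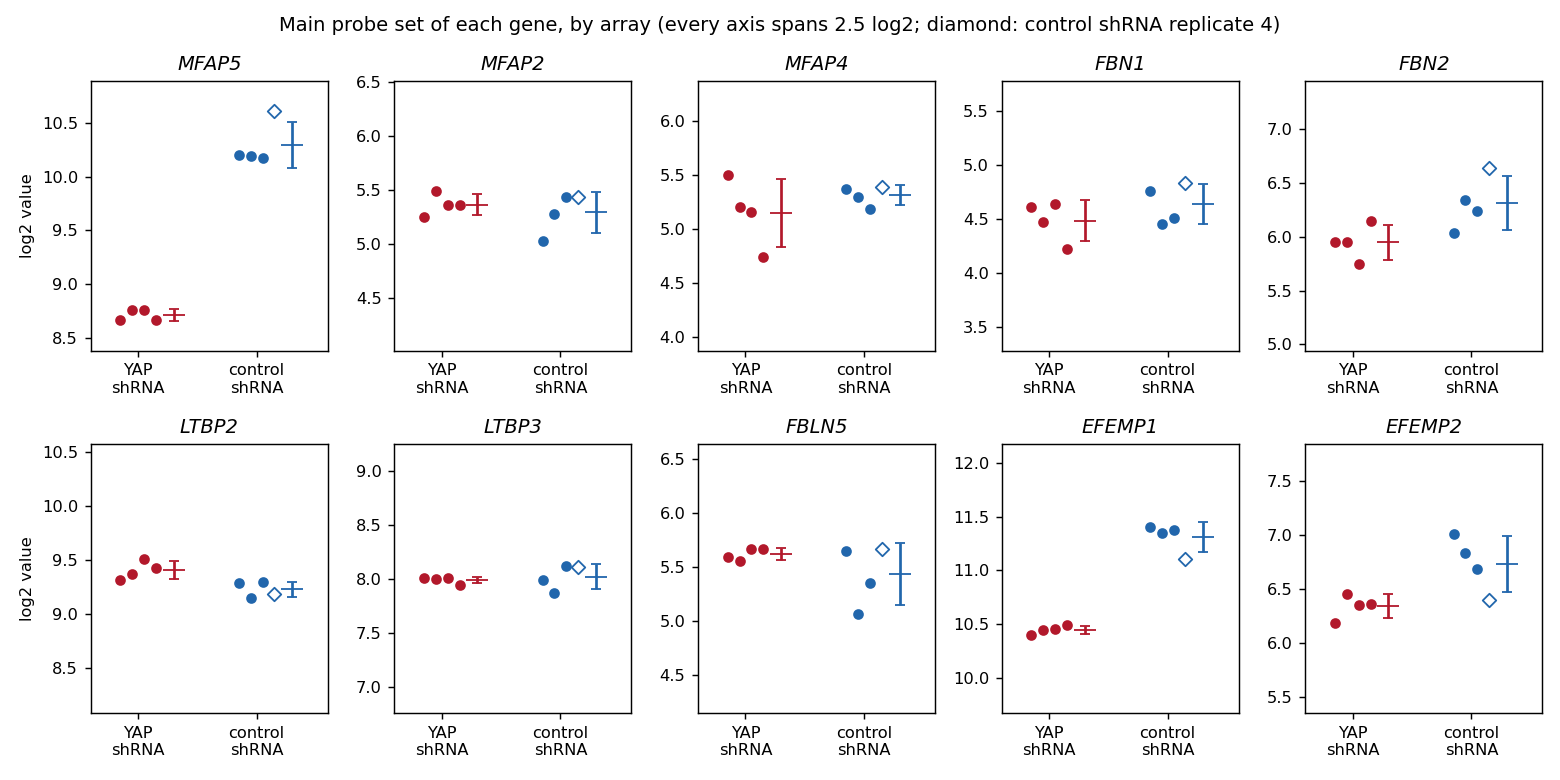
Log2 value of the main probe set of each of the 10 genes on every array, with YAP shRNA arrays in red and control shRNA arrays in blue, a diamond for control shRNA replicate 4, and the mean with SD beside each group. Every vertical axis spans the same number of log2 units, and MFAP5 and EFEMP1 show YAP shRNA arrays well below the control arrays, as LTBP2 shows a small difference the other way.

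EFEMP2, the gene of fibulin-4, which is needed for elastic fibre assembly, did not pass the test. Its call depended on 1 array and on the processing. Its log2 values were 6.19, 6.46, 6.35 and 6.37 on the YAP shRNA arrays, against 7.01, 6.83, 6.69 and 6.40 on the control shRNA arrays. The groups overlapped through control shRNA replicate 4, at 6.40, which lay below YAP shRNA replicate 2. The log2 fold change was -0.39 with a 95% interval of -0.67 to -0.11 (limma adjusted p = 0.0656). Without control shRNA replicate 4 the groups did not overlap and the fold change of -0.50 passed the test (limma adjusted p = 0.00743). Without that array, 19.6% of all genes were called and 3 of the 10 members were. A second EFEMP2 probe set stood at -0.03 (limma adjusted p = 0.897 over all probe sets). FBLN5, the gene of fibulin-5, which binds elastin and integrins, had 5.60, 5.56, 5.67 and 5.67 on the YAP shRNA arrays and 5.65, 5.07, 5.36 and 5.67 on the control shRNA arrays. Those groups overlapped, with a log2 fold change of 0.19 and a 95% interval of -0.10 to 0.47 (limma adjusted p = 0.388). Without control shRNA replicate 2, its lowest array, the value was 0.063.

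The fibrillin genes did not pass the test. FBN2, the fibrillin best known from development, had 5.95, 5.95, 5.75 and 6.15 on the YAP shRNA arrays, against 6.04, 6.34, 6.24 and 6.64 on the control shRNA arrays. The groups overlapped between YAP shRNA replicate 4 and control shRNA replicate 1. The log2 fold change was -0.37 with a 95% interval of -0.66 to -0.07 (limma adjusted p = 0.0953). Without control shRNA replicate 1 it was -0.46 and passed (limma adjusted p = 0.0434). Without control shRNA replicate 4, the highest control, it was -0.26 (limma adjusted p = 0.140). It did not pass with any other single array left out. The other FBN2 probe sets were dim and stood at -0.06 and 0.04. FBN1, the gene mutated in Marfan syndrome, had 4.61, 4.47, 4.64 and 4.22 on the YAP shRNA arrays and 4.76, 4.46, 4.51 and 4.84 on the control shRNA arrays. Its groups overlapped, with a log2 fold change of -0.16 and a 95% interval of -0.42 to 0.11 (limma adjusted p = 0.437), or -0.22 without control shRNA replicate 2 and -0.068 without YAP shRNA replicate 4. Its other probe sets stood at -0.26 and 0.08 and were dimmer still.

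The other microfibril-associated proteins gave no call. MFAP2, the closest relative of MFAP5 in this group, had 5.25, 5.49, 5.37 and 5.36 on the YAP shRNA arrays and 5.03, 5.28, 5.44 and 5.44 on the control shRNA arrays. The log2 fold change was 0.07 with a 95% interval of -0.15 to 0.29 (limma adjusted p = 0.695), and the groups overlapped. MFAP4, a fibrinogen-domain protein that binds elastin and collagen, ranged from 4.74 to 5.51 on the YAP shRNA arrays and from 5.19 to 5.39 on the control shRNA arrays. Its log2 fold change was -0.16, with a 95% interval of -0.49 to 0.16 (limma adjusted p = 0.517). With single arrays left out, it ran from -0.28 without YAP shRNA replicate 1 to -0.025 without YAP shRNA replicate 4, with no call. Both genes have 1 probe set each, as does FBLN5, so each rests on a single probe set.

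Neither latent TGF-beta binding protein gene passed the test on its main probe set. LTBP2, which does not bind latent TGF-beta itself but associates with fibrillin-1, had 9.32, 9.37, 9.51 and 9.43 on the YAP shRNA arrays, against 9.28, 9.14, 9.29 and 9.19 on the control shRNA arrays. The YAP shRNA arrays lay above all control arrays, though the gap between the groups was small. The log2 fold change was 0.18 with a 95% interval of 0.05 to 0.31, and it did not pass the test (limma adjusted p = 0.0647). Without control shRNA replicate 4 the value was 0.17 and did not pass either (limma adjusted p = 0.104). A second LTBP2 probe set had 8.99, 8.99, 8.88 and 9.14 against 8.53, 8.55, 8.59 and 8.48 on the same arrays, and it rose by 0.46 (limma adjusted p = 0.00137 over all probe sets), which is 1.38-fold. Only the second of the LTBP2 probe sets was called, and the difference between the probe sets was not tested. LTBP3, which does carry latent TGF-beta, had 8.01, 7.99, 8.01 and 7.95 on the YAP shRNA arrays and 7.99, 7.87, 8.12 and 8.11 on the control shRNA arrays. Its log2 fold change was -0.03, with a 95% interval of -0.17 to 0.11 (limma adjusted p = 0.810), and its other probe sets stood at 0.15 and 0.08, neither of them called.

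Across the 22 probe sets of the 10 genes, 6 fell and 1 rose, where 13.6% of all 41097 probe sets with 1 symbol were called. The falls were the 3 probe sets of MFAP5 and the 3 of EFEMP1, and the rise was that of LTBP2.

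**Figure D2:**
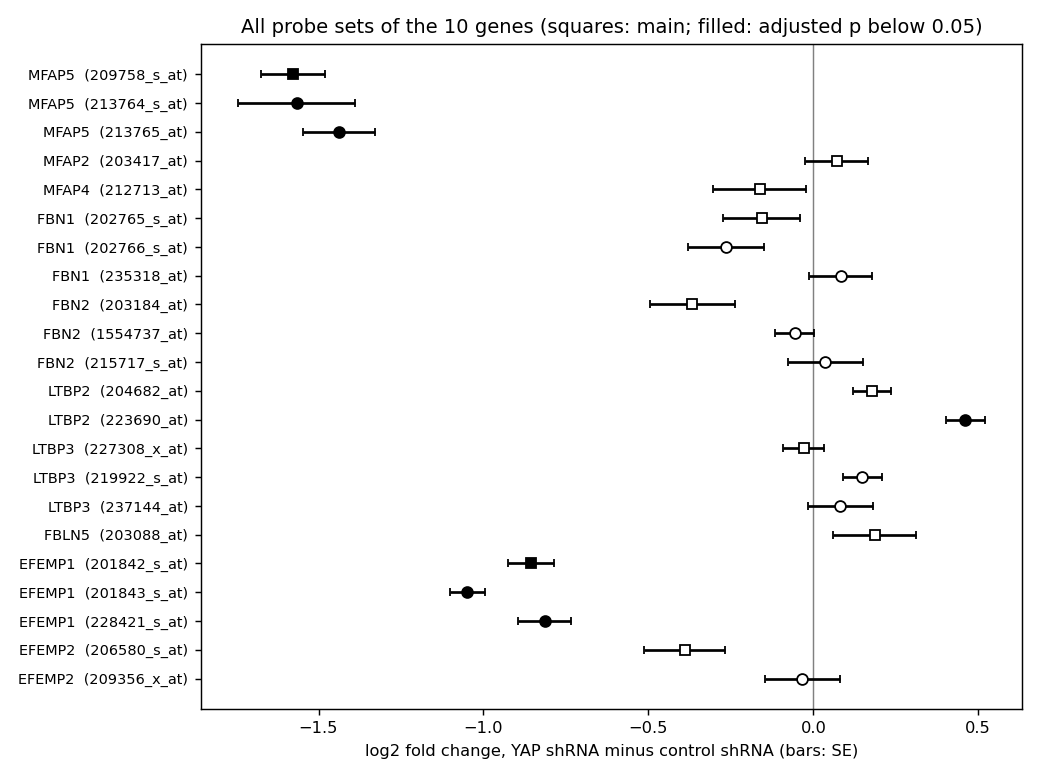
Log2 fold change, YAP shRNA minus control shRNA, of all 22 probe sets of the 10 genes, with bars of 1 standard error. Squares mark the probe set that stands for the gene and filled symbols an adjusted p below 0.05 over all probe sets, which the 3 of MFAP5, the 3 of EFEMP1 and 1 of LTBP2 reached.

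Close relatives were set against each other within the same arrays, in 4 pairs compared with two-sided exact permutation tests over the 8 arrays. A difference of this kind shows unequal change and not which gene stayed the same. MFAP5 minus MFAP2 was 3.35 ± 0.0691 on the YAP shRNA arrays and 4.996 ± 0.213 on the control shRNA arrays (SD, n = 4 and 4), a change of -1.65 (exact permutation p = 0.0286, or 0.0381 adjusted over the 4 pairs). MFAP2 was dim, at the percentile 27.5 of all genes by level, and whether its probe set could show a fall was not tested. MFAP5 alone had the same unadjusted exact permutation p, so the pair adds little to its own fall. EFEMP1 minus EFEMP2 was 4.11 ± 0.0918 with the YAP shRNA and 4.58 ± 0.147 with the control shRNA, a change of -0.47 (exact permutation p = 0.0286, adjusted p = 0.0381), so these main probe sets changed unequally in the same arrays. The change was -0.70 (exact permutation p = 0.0286) with each gene's probe sets averaged. EFEMP2 lay at the percentile 42.4 by level, against 79.4 for EFEMP1, and its second probe set stood at -0.03. Whether the difference in level shapes the unequal change was not tested. LTBP2 minus LTBP3 was 1.41 ± 0.0909 with the YAP shRNA and 1.21 ± 0.0992 with the control shRNA, a change of 0.21 (exact permutation p = 0.0286, adjusted p = 0.0381). That last difference was 0.25 (exact permutation p = 0.0286) with each gene's probe sets averaged, and 0.10 (exact permutation p = 0.514) once probe sets ending in _s_at or _x_at were left out. Its exact p was 0.0571 after quantile normalization. FBN1 minus FBN2 was -1.46 ± 0.343 with the YAP shRNA and -1.67 ± 0.273 with the control shRNA, a change of 0.21 within the spread of the arrays (exact permutation p = 0.400). This value depended on single arrays and on the probe sets. It was 0.09 without YAP shRNA replicate 3 and 0.36 without YAP shRNA replicate 4. It was 0.02 with probe sets averaged, which did not pass, and 0.45 without those ending in _s_at or _x_at (exact permutation p = 0.0286).

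**Figure D3:**
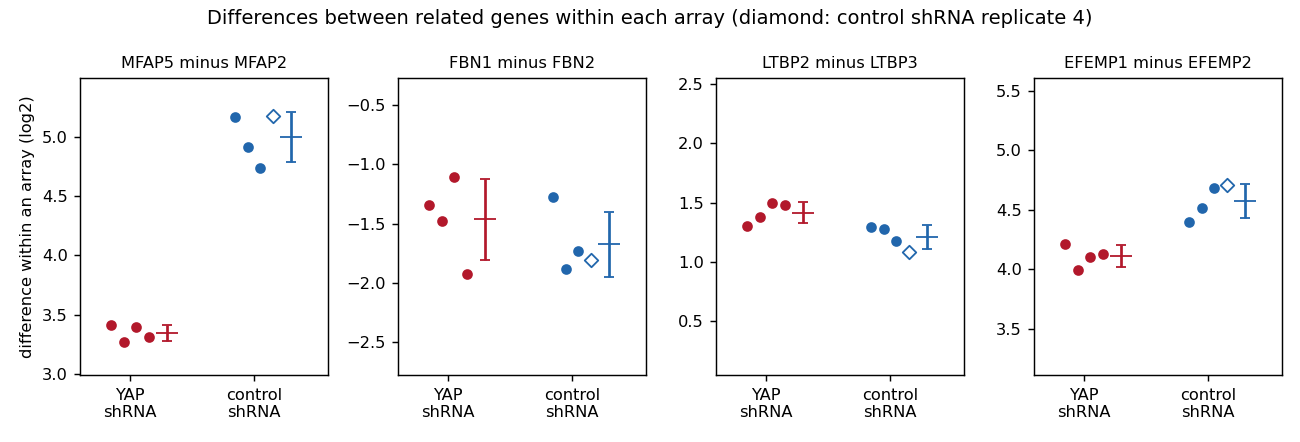
Log2 difference between the genes of each of 4 related pairs within every array, with YAP shRNA arrays in red, control shRNA arrays in blue, a diamond for control shRNA replicate 4, and the mean with SD beside each group. MFAP5 minus MFAP2 lies between 3.27 and 3.41 on the YAP shRNA arrays and between 4.73 and 5.17 on the control shRNA arrays, and FBN1 minus FBN2 overlaps.

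Genes around the microfibril were read from 4 lists. Over all genes, 16.7% were called, 9.49% as rises and 7.17% as falls, or 19.6% without control shRNA replicate 4. Whether any list departs from those shares was not tested. Of 19 other elastic fibre and microfibril-associated genes, 3 fell and 0 rose (at an unadjusted p below 0.05, 4 and 0), with a median log2 fold change of -0.06. FBLN1, the gene of fibulin-1, had 8.87, 8.85, 8.84 and 8.86 on the YAP shRNA arrays and 9.40, 9.42, 9.46 and 9.66 on the control shRNA arrays, a fall of 0.63 on the log2 scale (limma adjusted p = 0.000225). LTBP1, which anchors latent TGF-beta in the matrix, fell by 0.57 (limma adjusted p = 0.000307), and EMILIN2, an elastin-interface glycoprotein, fell by 0.24 (limma adjusted p = 0.0250). In each of these 3 genes the groups did not overlap, which adds no further support because they were named for being called. Elastin itself, ELN, averaged 6.88 ± 0.151 with the YAP shRNA and 6.86 ± 0.190 with the control shRNA (SD, n = 4 and 4) and did not pass (limma adjusted p = 0.960).

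Of 21 genes that assemble, glycosylate or cross-link these fibres, 4 fell and 2 rose, with a median of -0.05. ADAMTS6, a secreted metalloprotease of a family that acts on microfibrils, had 10.08, 10.12, 10.18 and 10.08 on the YAP shRNA arrays and 10.74, 10.80, 10.75 and 11.00 on the control shRNA arrays, and fell by 0.71 (limma adjusted p = 0.000205). LOX, the lysyl oxidase that starts elastin cross-linking, and its relative LOXL4 fell by 0.51 and 0.43, and B3GLCT, a glucosyltransferase that acts on thrombospondin repeats of ADAMTS-type proteins, fell by 0.42. FURIN, the convertase that trims profibrillin, rose by 0.54 (limma adjusted p = 0.000228), and FKBP10, a collagen and elastin chaperone of the endoplasmic reticulum, by 0.31. The groups did not overlap for any of these 6 genes, nor for 24.3% of all genes. The 6 were named because they were called, so this adds no further support.

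Growth factors held by microfibrils and receptors of microfibril proteins moved in both directions. Of 22 measured, 4 rose and 1 fell, with a median of 0.01. ITGB8, an integrin subunit that pairs with ITGAV to release TGF-beta, rose by 1.23 and ITGAV by 0.23, while ITGB5 fell by 0.22. BMP4 and TGFB3 rose by 0.25 and 0.23. Without control shRNA replicate 4, 3 rose and 1 fell. Of 16 proteases known to cut elastin or fibrillin, 5 rose and 1 fell, with a median of 0.06, where 9.49% of all genes rose and 7.17% fell. MMP9, MMP7 and CTSS rose by 1.41, 1.25 and 0.84 on the log2 scale, and CTSV, a cathepsin with strong elastin-degrading activity, fell by 0.64. MMP9 had 7.76, 8.11, 8.04 and 7.99 on the YAP shRNA arrays and 6.58, 6.64, 6.16 and 6.87 on the control shRNA arrays. MFAP1, MFAP3 and MFAP3L, which carry the MFAP name, gave 0 calls (0 at an unadjusted p below 0.05). Elsewhere the counts without control shRNA replicate 4 were 1 and 3 for rises and falls of the elastic fibre list, 2 and 4 for the assembly list, and 7 and 1 for the proteases.

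**Figure D4:**
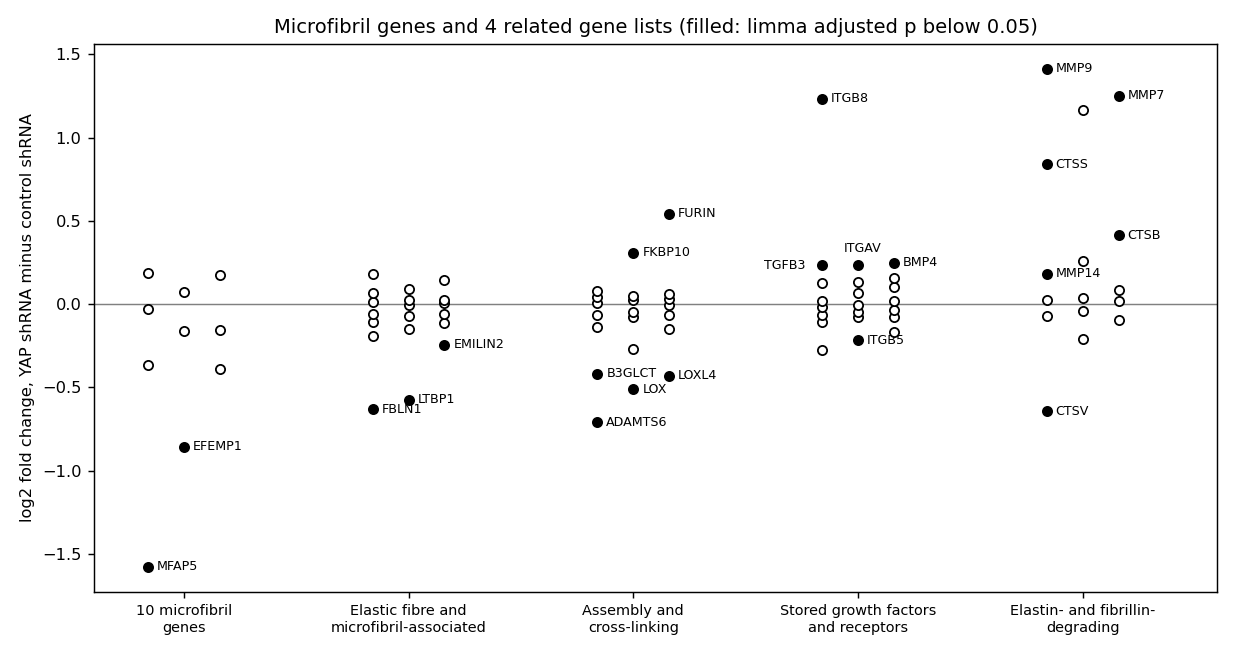
Log2 fold change, YAP shRNA minus control shRNA, of the 10 microfibril genes and of the 4 lists around them, 1 point per gene, with filled points at a limma adjusted p below 0.05. MFAP5 at -1.58 lies lowest in the plot, and the protease genes MMP9 and MMP7 at 1.41 and 1.25 lie highest among the filled points.

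Genes whose pattern over the 8 arrays was most like that of MFAP5 were found by Pearson correlation across the main probe sets. The 5 highest were TMEM45A, a transmembrane protein, ADAMTS6, PDLIM4, an actin-associated PDZ and LIM protein, CDH2, the N-cadherin gene, and DNER, a neuronal EGF-repeat receptor, with r of 0.997, 0.997, 0.997, 0.997 and 0.996, or 0.996, 0.997, 0.996, 0.999 and 0.995 without control shRNA replicate 4. The points share 2 groups that differ, so any gene with a clear group difference in the same direction scores high. Their falls differed in size: DNER fell by 1.18, TMEM45A by 0.89, ADAMTS6 by 0.71, CDH2 by 0.32 and PDLIM4 by 0.25 on the log2 scale. In all 5, control shRNA replicate 4 was the highest control array, as it was for MFAP5. The 5 were picked for likeness to MFAP5 over these same arrays, so that match follows largely from the choice. EFEMP1 had an r of 0.935 with MFAP5, FBN2 one of 0.767 and LTBP2 one of -0.801.

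Promoter windows of 250 bases before to 50 after the start site were read from RefSeq sequence of GRCh38.p14, a table that held 7 of the 10 genes (MFAP2, FBN1, FBN2, LTBP2, LTBP3, FBLN5 and EFEMP2) and 7 of the 9 genes called in the elastic fibre and assembly lists. The windows of MFAP5, MFAP4, EFEMP1, B3GLCT and FKBP10 were not analysed here. The others were searched on both strands for GGAATG, the core that TEAD factors, the DNA-binding partners of YAP, recognise, and for TGANTCA, the AP-1 site. GGAATG was found in 1 of the 7 members and in 2 of the 7 called genes, against 14.0% of all 35116 windows, and TGANTCA in 1 and 1, against 7.7%. The 4 windows with a match are shown, which puts genes that fell, ADAMTS6 and EMILIN2, beside members that did not pass the test, FBN1 and MFAP2. Among the other called genes with a window, LTBP1, FBLN1, LOX and LOXL4 fell and FURIN rose. Neither motif was found in any of those windows. Capitals mark the matches, and each sequence runs 5′ to 3′ along the gene's strand.
ADAMTS6, chr5:65481871-65482170, strand -: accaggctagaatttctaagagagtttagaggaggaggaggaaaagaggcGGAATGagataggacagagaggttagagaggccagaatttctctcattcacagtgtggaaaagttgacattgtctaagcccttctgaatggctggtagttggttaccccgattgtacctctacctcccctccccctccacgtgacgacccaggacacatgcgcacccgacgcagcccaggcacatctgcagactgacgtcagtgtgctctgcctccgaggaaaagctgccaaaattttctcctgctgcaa
EMILIN2, chr18:2846756-2847055, strand +: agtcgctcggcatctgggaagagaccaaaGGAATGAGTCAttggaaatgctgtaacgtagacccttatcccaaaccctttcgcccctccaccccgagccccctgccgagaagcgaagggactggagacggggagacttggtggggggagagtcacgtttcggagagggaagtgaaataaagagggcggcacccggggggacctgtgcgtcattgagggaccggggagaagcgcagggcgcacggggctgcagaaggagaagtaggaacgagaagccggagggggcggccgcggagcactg
FBN1, chr15:48644921-48645220, strand -: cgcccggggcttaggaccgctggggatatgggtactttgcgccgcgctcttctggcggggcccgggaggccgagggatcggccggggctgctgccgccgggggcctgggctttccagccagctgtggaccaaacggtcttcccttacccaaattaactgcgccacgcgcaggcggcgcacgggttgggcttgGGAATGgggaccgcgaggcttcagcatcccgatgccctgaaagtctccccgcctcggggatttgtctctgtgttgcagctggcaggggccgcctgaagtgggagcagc
MFAP2, chr1:16981534-16981833, strand -: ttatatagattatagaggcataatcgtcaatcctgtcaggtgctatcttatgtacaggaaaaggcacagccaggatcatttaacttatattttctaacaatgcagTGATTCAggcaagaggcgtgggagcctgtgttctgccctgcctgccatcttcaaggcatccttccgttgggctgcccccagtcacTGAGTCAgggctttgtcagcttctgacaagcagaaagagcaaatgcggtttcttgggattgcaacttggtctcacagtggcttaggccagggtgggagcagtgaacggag
GGAATG begins 200 bases before the start in ADAMTS6, 221 before it in EMILIN2 and 58 before it in FBN1. In EMILIN2 it overlaps a TGANTCA match, which begins 217 bases before the start. In MFAP2, TGANTCA matches begin 145 and 60 bases before the start and GGAATG was not found. A match in these letters is a description of the window, and binding there was not tested.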

How the data were processed

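RNA of HuCCT1 cells was measured on 8 Affymetrix-type expression arrays. The authors deposited log2 values for every probe set of each array. That the base is 2 is an inference from the span of 1.72 to 14.9. How background was corrected and arrays were normalized is not stated in the labels. Per the labels' protocols, total RNA was purified on columns, then NuGEN reagents amplified it and biotin was attached. The number of arrays limits the precision.

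Of 54675 probe sets, GEO's platform annotation gave 1 symbol to 41097, several to 1801 and none to 11777, and 41043 matched RefSeq by Entrez ID with 0 symbols changed. The fit was limma 3.58.1 (R 4.3.3), YAP shRNA minus control shRNA, over 19775 genes, with Benjamini-Hochberg adjustment and no block. A gene's brightest probe set, by its mean over 8 arrays, stood for it. The fit was also run on simulated data with independent noise for each gene and shifts planted in some genes. That setting holds no array set apart like control shRNA replicate 4, so it cannot show how such an array affects the calls. Figures used matplotlib 3.10.9.

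The 10 members, the 5 related gene lists and the marker lists were chosen with earlier results of these data known. Named list genes are the called ones. Among the proteases only the 3 largest rises were named, and CTSB and MMP14 also rose there. Besides these, ELN was named after its values were seen. A few of the genes listed are not reported here. Of 7 biliary markers 2 rose and 0 fell (2 and 1 at an unadjusted p below 0.05), of 5 endothelial markers 0 and 0 (1 and 0), and of 3 leukocyte markers 0 and 1 (0 and 1), that being PTPRC, by limma. Over all genes, 9.49% rose and 7.17% fell in the main fit. Without control shRNA replicate 4, 0 leukocyte markers were called. Alternatives are given in the closing section.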

Additional observations from a re-analysis of the deposited data

Results flagged for a closer look

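Of 30 groups of 4 values, made of the 10 microfibril genes, YAP1 and the 4 pairs of related genes, 2 held an array set well apart from its group, and about 1.5 would arise by chance. MFAP5 in control shRNA replicate 4 stood at 10.61, above 10.17 to 10.20 in the other control arrays. YAP1 in control shRNA replicate 3 stood at 12.77, above 12.59 to 12.61 in the other control arrays.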

How the results depend on the processing

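MFAP5 kept its fall and its call in all 18 alternatives, with log2 fold changes of -1.62 to -1.44 (limma adjusted p up to 0.00247), and EFEMP1 in the 17 that could test it, at -0.92 to -0.82. The members called numbered 4, LTBP2 and EFEMP2 being added, without the lowest 25% of genes by level and with trend and robust moderation. They numbered 1 without probe sets ending in _s_at or _x_at, where EFEMP1 and EFEMP2 have none left. With each array left out in turn they numbered 2 to 3, and genes called ranged from 2381 to 3881. LTBP2 was called in 5 alternatives, EFEMP2 in 4 and FBN2 in 1. Directions turned, with no call, for MFAP2 without control shRNA replicate 1 (leave-one-out range -0.0167 to 0.118) and LTBP3 without control shRNA replicate 3 (leave-one-out range -0.0803 to 0.00367). LTBP3 also turned when probe sets were averaged per gene (0.0669) and without _s_at and _x_at probe sets (0.0822), as did FBN1 in the last setting (0.0824). There, FBN1 minus FBN2 changed by 0.45 (exact permutation p = 0.0286) and LTBP2 minus LTBP3 by 0.10, against 0.21 (exact permutation p = 0.0571) for LTBP2 minus LTBP3 with quantile normalization. The cause was not tested. With an array left out, 3 against 4 cannot go below an exact p of 0.0571, so pairs were then read as values only. With the replicate number as a block, 2106 genes were called, 1222 risen and 884 fallen, and 2 members. The numbers gave no sign of pairing: same-numbered deviations correlated at -0.206 to 0.002, and 0 of 8 arrays correlated best with its own number. With 4 arrays per group, this cannot exclude a shared culture or day.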
